A study of Mus musculus with 6 samples.

Results

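The ephrin, Slit-Robo and netrin guidance genes are 39 protein-coding genes, of 21883 on the nuclear chromosomes, that were chosen by symbol: 8 ephrins (Efna and Efnb), 14 Eph receptors (Epha and Ephb), Slit1 to Slit3, Robo1 to Robo4, Ntn1, Ntn3, Ntn4, Ntn5, Dcc, Neo1 and Unc5a to Unc5d. They were examined for binding of COUP-TFII, the nuclear receptor encoded by Nr2f2, by ChIP-seq, which sequences the DNA that an antibody pulls down from chromatin, in mouse mesonephroi, which lie beside the fetal gonads and carry the Müllerian and Wolffian ducts. Chromatin came from pools of CD-1 embryos at E14.5, with 2 ChIP samples from XX mesonephroi, 2 ChIP samples from XY mesonephroi and 2 samples of input pooled from both sexes. Both ChIP groups were of 1 strain and stage and used a rabbit antibody to COUP-TFII, and the number of embryos per pool is not given in the sources used here. For each sex the authors deposited 1 list of peaks, with 11175 XX peaks and 9846 XY peaks. Every peak is a 300 bp interval (mm10) with no height, score or p-value. There is thus no spread between replicates for any value below, the depth behind each list is unknown, and a peak missing from a list may have been absent or under the authors' threshold. Peak lists hold no expression values, so the tissue label could not be checked against marker genes.

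Guidance molecules steer growing axons, vessels and migrating cells by attraction or repulsion. Ephrins are held in the cell membrane, ephrin-A by a lipid anchor and ephrin-B by a transmembrane segment, and bind Eph receptor tyrosine kinases on neighbouring cells, with signals in both directions. Slits are secreted repellents bound by Robo receptors; in the mouse urogenital ridge, Slit2 and Robo2 are known for limiting where the ureteric bud leaves the Wolffian duct. Netrins are secreted cues that attract through Dcc and neogenin and repel through Unc5 receptors. COUP-TFII is known for its part in the identity of veins, and Efnb2 and Ephb4 are classical genes of arteries and veins.

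COUP-TFII peaks lay at 24 of the 39 genes (61.5%), against 42.2% of all protein-coding genes with a peak in either list. Each peak went to whichever protein-coding gene body lay nearest, up to 100 kb away, and peaks were called shared when an XX and an XY peak had at least 1 bp in common; shared peaks carry XX coordinates. The 39 genes had 33 XX peaks at 23 genes and 24 XY peaks at 16 genes. An XX peak was present at 59.0% of them, against 36.9% of all protein-coding genes, and an XY peak at 41.0%, against 35.1%. A shared peak was present at 14 genes (35.9%, against 28.2%), an XX-only peak at 15 genes (38.5%, against 13.1%) and an XY-only peak at 7 genes (17.9%, against 9.56%). The medians were 1 XX peak, 0 XY peaks and 0 shared peaks per guidance gene, and 0 for each over the other protein-coding genes.

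**Figure D1:**
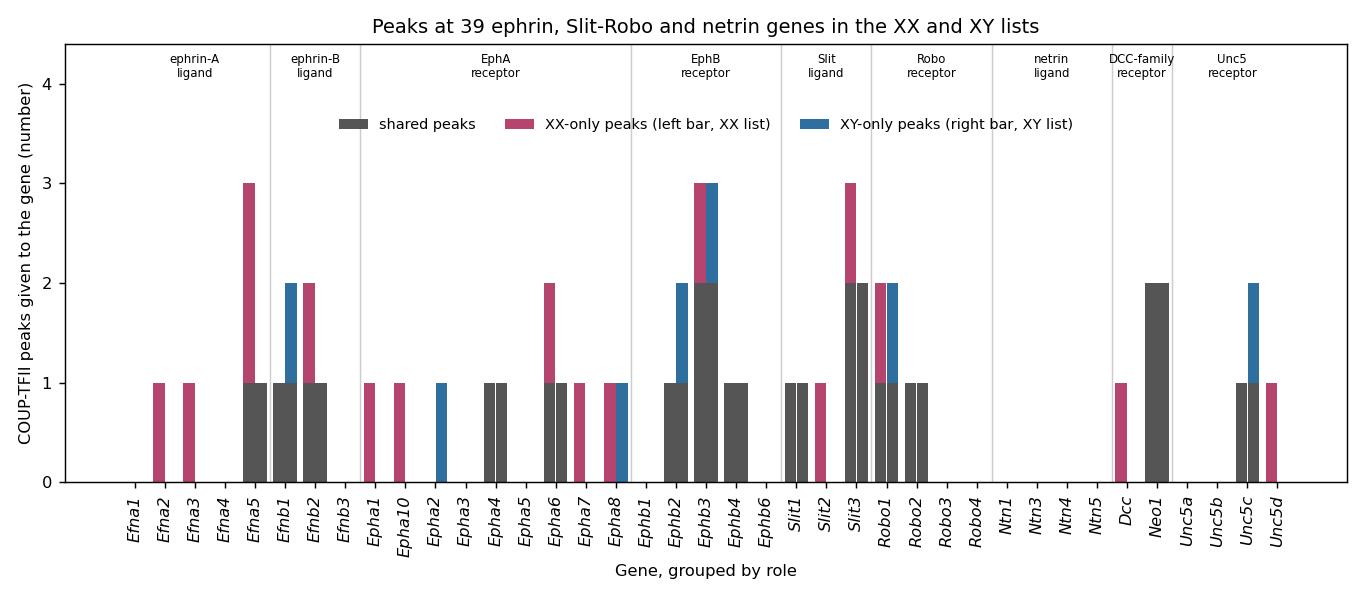
Number of COUP-TFII peaks (y axis) given to each of the 39 genes (x axis, grouped by role), with the XX list as the left bar and the XY list as the right bar of each pair; grey marks shared peaks. Ephb3 had 3 peaks in both lists, Neo1 had 2 shared peaks, and the 4 netrin genes had none.

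Guidance genes tend to be long, and a long gene has more room for peaks. Their median length was 69.0 kb, against 17.1 kb for the other protein-coding genes, and the median stretch of genome nearest to each gene (its territory, within 100 kb) was 160 kb, against 45.0 kb. Per length of territory the guidance genes had lower values: 2.60 XX peaks per Mb, against 5.49 for the other genes, and 1.89 XY peaks per Mb, against 4.94. Shared peaks numbered 1.34 per Mb, against 3.76. Peaks per Mb fall with territory length over all genes, and within classes of length the guidance genes were not lower throughout. At territories of 200 kb or more they had 1.79 XX and 1.26 XY peaks per Mb, against 2.65 and 2.14 for all protein-coding genes of that class. This class has no upper limit, and length was not matched within it: its guidance genes had territories from 201 kb (Ntn1) to 1700 kb (Robo2). At 50 to 200 kb the guidance genes had 6.4 and 7.2, against 5.55 and 5.0, and under 50 kb they had 17.5 and 3.50, against 14.0 and 13.2. Among the 17 guidance genes with territories of 200 kb or more, 13 had an XX peak (76.5%, against 54.1% of all genes of that class) and 9 had an XY peak (52.9%, against 48.7%). Among the 12 with territories under 50 kb, 5 had an XX peak (41.7%, against 29.2%) and 1 had an XY peak (8.33%, against 28.1%). Of the remaining 10 genes, 5 had an XX peak (against 43.4% of all genes of that class) and 6 had an XY peak (60.0%, against 41.4%). XX-only peaks stood at a higher share of guidance genes than of all genes in each class: 33.3% against 7.64% for territories under 50 kb, 30.0% against 16.3% for 50 to 200 kb and 47.1% against 30.5% for longer ones. Counted per Mb, XX-only peaks were higher in the first classes (14.0 against 3.5, and 2.4 against 1.77) and lower at 200 kb or more (0.807 against 1.12). For XY-only peaks the shares went both ways: 0% against 6.19%, 40.0% against 11.8% and 17.6% against 18.9%, in the same order of classes. These shares rest on 0 to 8 genes per class and were not tested.

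**Figure D2:**
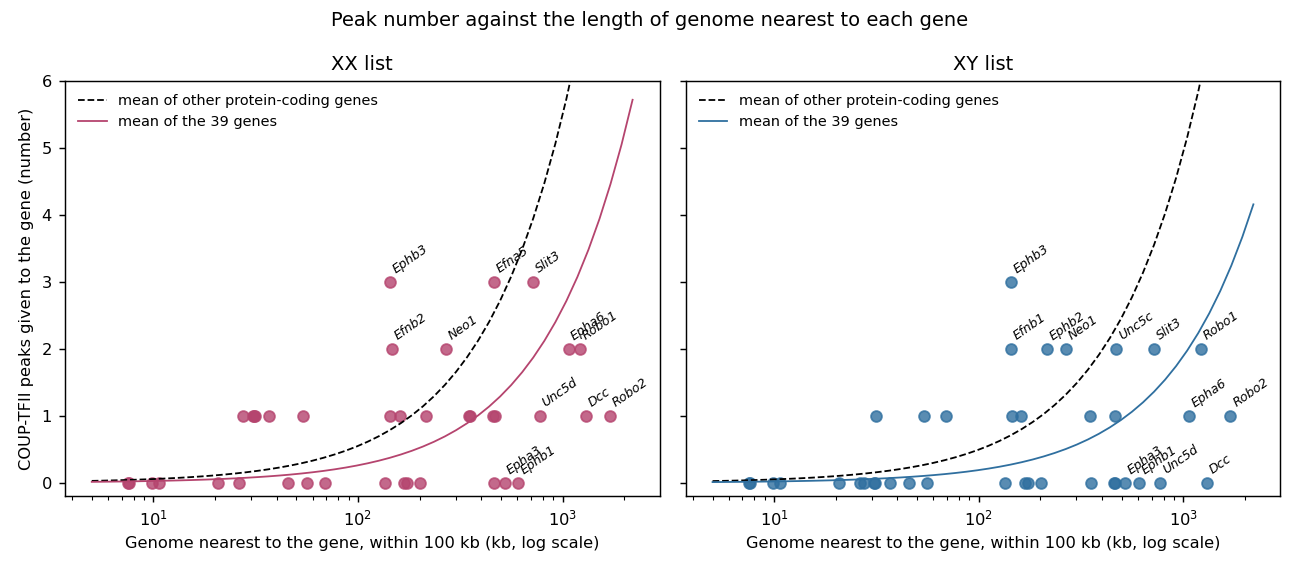
Number of peaks at each of the 39 genes (y axis) against the length of genome nearest to the gene (x axis, kb, log scale), for the XX list (left) and the XY list (right). Solid lines give the mean of the 39 genes (2.60 XX and 1.89 XY peaks per Mb). Dashed lines give the mean of the other protein-coding genes of every length (5.49 and 4.94). Robo2, Dcc and Robo1, with the longest territories, lie below the dashed lines. All protein-coding genes with territories of 200 kb or more also had lower means, 2.65 XX and 2.14 XY peaks per Mb.

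Among the ephrin-A ligands, Efna5 held the most peaks, with 3 in the XX list and 1 in the XY list. Efna5, a ligand best known from the mapping of visual projections, lies on chromosome 17 (62602957 to 62881317). Its shared peak lay 17.7 kb upstream of the start site at 62899018 to 62899317, and the XX and XY centres were 3 bp apart. The XX-only peaks lay deep in the gene, at 62737458 to 62737757 and 62776076 to 62776375. The XY peak nearest to the first was 161 kb away. Efna2 and Efna3 each had 1 XX peak and no XY peak. At Efna2 it lay inside the gene, 9.14 kb downstream of the start site (chromosome 10, 80188627 to 80188926). At Efna3 it lay 909 bp downstream of the inner of the 2 listed start sites (chromosome 3, 89320560 to 89320859). Efna1 and Efna4, in the same cluster as Efna3 on chromosome 3, had no peak in either list.

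The ephrin-B genes Efnb1 and Efnb2 both had a shared peak, at different places relative to the gene. Efnb2, which encodes the ligand that marks arteries, had 2 XX peaks and 1 XY peak on chromosome 8. The shared peak lay just upstream of the start site, 103 bp from it in the XX list (8661345 to 8661644) and 52 bp from it in the XY list. Arglu1, the next protein-coding gene, was 4.65 kb from the shared peak. The XX-only peak lay 20.7 kb outside the other end of Efnb2 (8596216 to 8596515). At Efnb1, an X-linked gene of craniofacial development, there was 1 XX peak and there were 2 XY peaks, all beyond the gene. The shared peak lay 23.3 kb outside it (99172349 to 99172648) and the XY-only peak 92.9 kb outside it (99241877 to 99242176). Stard8, the next protein-coding gene, was 97.6 kb from the shared peak and 167 kb from the XY-only peak. Efnb3, whose ligand acts at the midline of the nervous system, had no peak.

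The Efnb2 promoter is shown because the shared peak covered part of it. The window runs from 250 bases before to 50 after the start site (RefSeq, GRCm38.p6), and XX and XY peaks covered 148 and 199 of its 300 bases. It is printed 5′ to 3′ on the minus strand (chr8:8661193-8661492), with capitals marking GGGCGG (a GC box) and AGGGTCA (a variant of the nuclear receptor core element AGGTCA) on either strand.
Efnb2: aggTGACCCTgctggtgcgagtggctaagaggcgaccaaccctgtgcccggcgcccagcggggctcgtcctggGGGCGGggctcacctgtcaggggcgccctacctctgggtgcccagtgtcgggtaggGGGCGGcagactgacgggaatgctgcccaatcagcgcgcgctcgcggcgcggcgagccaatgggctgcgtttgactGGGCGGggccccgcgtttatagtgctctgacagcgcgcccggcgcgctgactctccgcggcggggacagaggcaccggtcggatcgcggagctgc
The window held 3 GC boxes and 1 AGGGTCA, here read as TGACCCT on the printed strand at its far upstream edge.

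Of the 9 EphA receptor genes, Epha4 and Epha6 had a shared peak (22.2%, against 28.2% of all protein-coding genes). An XX-only peak was present at 5 (55.6%, against 13.1%). Over all genes the share was 7.64% for territories under 50 kb, 16.3% for 50 to 200 kb and 30.5% for longer ones. Territories of these 5 genes ran from 27.4 kb (Epha1) to 1070 kb (Epha6), and 9 genes are too few to compare. Epha4, a receptor that binds ephrins of both classes, had 1 peak in each list, 207 bp (XX) and 231 bp (XY) upstream of its start site (XX peak at chromosome 1, 77515295 to 77515594). The next protein-coding gene, Pax3, lay 586 kb away. Epha6, on chromosome 16, had 2 XX peaks and 1 XY peak. The shared peak lay inside the gene, 74.1 kb from its far end (59715549 to 59715848), 890 kb downstream of the start site, with centres 5 bp apart. The XX-only peak lay 224 bp downstream of the start site (60605008 to 60605307), and the nearest XY peak was the one 889 kb away in the same gene.

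The other EphA genes had peaks in 1 list or none in common. Epha1 had 1 XX peak, 224 bp downstream of its start site (chromosome 6, 42372745 to 42373044), and no XY peak. Epha7, a receptor of the developing nervous system, had 1 XX peak, 1.81 kb downstream of the start site (chromosome 4, 28814952 to 28815251), and the nearest XY peak was 2470 kb away. Epha10, whose protein lacks kinase activity, had 1 XX peak inside the gene, 24.3 kb downstream of the start site (chromosome 4, 124906037 to 124906336). Epha2, an epithelial receptor, was the 1 guidance gene with an XY peak and no XX peak, at 9.27 kb upstream of the start site (chromosome 4, 141291651 to 141291950). Epha8 had 1 peak in each list that did not overlap. Its XX peak lay 5.25 kb upstream of the start site (chromosome 4, 136962071 to 136962370) and its XY peak 1.82 kb downstream (136954696 to 136954995), 7.08 kb apart. Peaks in both lists with none shared were found at 1.84% of all protein-coding genes. Epha3 and Epha5, with territories of 521 kb and 463 kb, had no peak. Of all genes with territories of 200 kb or more, 54.1% had an XX peak and 48.7% an XY peak.

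The EphB receptor genes Ephb2, Ephb3 and Ephb4 carried 4 shared peaks between them. A shared peak was thus present at 3 of 5 EphB genes (60.0%, against 28.2% of all protein-coding genes). Gene length was not matched in the share of all genes. Territories of these 3 genes ran from 31.5 kb (Ephb4) to 215 kb (Ephb2), and 5 genes are too few to compare. Ephb3, on chromosome 16, had 3 peaks in each list, with 20.8 peaks per Mb of territory in both. Its first shared peak covered the start site (XX 21204792 to 21205091, XY 21204689 to 21204988), and its second lay 23.1 kb past the other end of the gene (XX 21246422 to 21246721). Further out, 87.1 kb past the gene, the XX peak (21310393 to 21310692) and the XY peak (21310734 to 21311033) were 42 bp apart. By the 1 bp rule these counted as XX-only and XY-only, and with peaks within 1 kb taken as shared they counted as shared. Ephb4, the receptor of veins that binds Efnb2, had 1 shared peak and no other, 174 bp (XX) and 188 bp (XY) upstream of its start site (XX peak at chromosome 5, 137349636 to 137349935). The territory of Ephb4 measured 31.5 kb, which gave 31.7 peaks per Mb in both lists.

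Ephb2 differed between the lists at its start site. It had 1 XX peak and 2 XY peaks on chromosome 4. The shared peak lay inside the gene, 152 kb downstream of the start site (136683817 to 136684116). The XY-only peak covered the start site itself (136835969 to 136836268), and the nearest XX peak was 126 kb from it. Whether XX chromatin had a weaker signal at this place was not analysed here, since the lists carry no signal values. Ephb1, with a territory of 608 kb, and Ephb6, whose protein lacks kinase activity, had no peak.

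The EphB promoters are shown because a peak overlapped each: in both lists at Ephb3 (53 bases by the XX and 156 by the XY peak) and Ephb4 (77 and 63 bases), and in the XY list alone at Ephb2 (294 bases). Each is printed 5′ to 3′ over the same window (chr16:21204545-21204844 on the plus strand, chr5:137349859-137350158 on the plus strand and chr4:136835963-136836262 on the minus strand), with GC boxes on either strand in capitals.
Ephb3: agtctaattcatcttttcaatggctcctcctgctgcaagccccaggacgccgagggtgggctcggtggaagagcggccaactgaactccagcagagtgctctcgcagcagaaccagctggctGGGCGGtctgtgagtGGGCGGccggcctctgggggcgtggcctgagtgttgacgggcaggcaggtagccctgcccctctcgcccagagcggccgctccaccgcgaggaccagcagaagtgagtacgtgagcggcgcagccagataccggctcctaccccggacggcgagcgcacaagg
Ephb4: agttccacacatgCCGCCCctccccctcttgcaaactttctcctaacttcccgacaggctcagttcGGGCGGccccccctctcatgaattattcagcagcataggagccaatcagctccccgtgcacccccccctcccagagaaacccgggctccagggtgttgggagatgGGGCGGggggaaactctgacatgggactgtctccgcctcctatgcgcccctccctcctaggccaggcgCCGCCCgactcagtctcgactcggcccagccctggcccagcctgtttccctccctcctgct
Ephb2: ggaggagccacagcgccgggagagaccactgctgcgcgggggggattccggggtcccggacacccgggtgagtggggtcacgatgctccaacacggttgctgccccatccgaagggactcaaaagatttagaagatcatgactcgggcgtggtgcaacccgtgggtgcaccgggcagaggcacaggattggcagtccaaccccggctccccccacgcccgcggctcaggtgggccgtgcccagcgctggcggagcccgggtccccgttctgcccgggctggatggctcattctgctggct
Ephb4 held 4 GC boxes, of which the reverse reading is CCGCCC, Ephb3 held 2 and Ephb2 held 0. None of these 3 windows held AGGTCA or AGGGTCA.

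**Figure D3:**
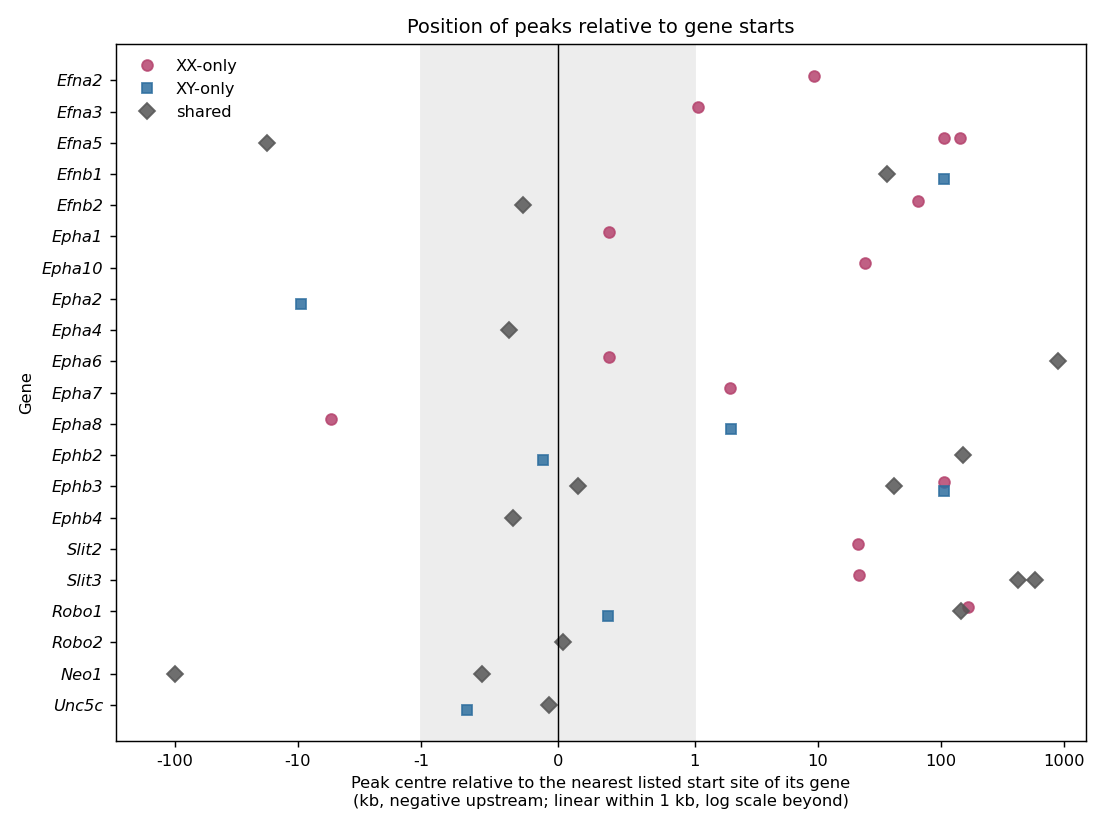
Centre of each peak (x axis, kb, negative upstream, linear within 1 kb and log scale beyond) relative to the nearest listed start site of its gene (y axis), for the genes with a listed start site; shared peaks are drawn at XX coordinates and the grey band marks 1 kb on either side. Efnb2, Epha4, Ephb3, Ephb4, Robo2, Neo1 and Unc5c each have 1 shared peak in the band, and the other shared peaks of Ephb3 and Neo1 lie far outside it; the shared peaks of Slit3, Ephb2, Epha6 and Robo1 lie over 100 kb downstream.

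All 3 Slit genes had an XX peak, against 36.9% of all protein-coding genes and 54.1% of those with territories of 200 kb or more. Slit1, Slit2 and Slit3 had territories of 160 kb, 459 kb and 718 kb, and 3 genes are too few to compare. All peaks of the Slit genes were over 10 kb from the nearest end of their gene. Slit3, on chromosome 11, had 3 XX peaks and 2 XY peaks. Its shared peaks lay 423 kb and 576 kb downstream of the start site (35544171 to 35544470 and 35697922 to 35698221), and the second pair had centres 2 bp apart. Its XX-only peak lay 21.3 kb downstream of the start site (35142741 to 35143040), and the nearest XY peak was 401 kb from it. Slit2, a ligand of Robo2 in mouse kidney development, had 1 XX peak, 21.0 kb downstream of the start site (chromosome 5, 48004153 to 48004452), and no XY peak. Measured from the nearer end of the gene, the XX-only peaks of Slit2 and Slit3 lay 22.9 kb and 21.3 kb inside. A likeness between 2 peaks was not tested. Slit1 had 1 shared peak inside the gene, 30.7 kb from its nearer end (chromosome 19, 41716277 to 41716576), with centres 23 bp apart.

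Robo1 and Robo2, neighbours on chromosome 16 and with lengths of 1020 kb and 1560 kb, had peaks at start sites inside the gene. Robo2 had 1 shared peak, which gave 0.588 peaks per Mb of territory in both lists. That peak (74411635 to 74411934) covered the innermost of the 3 listed start sites, 1040 kb from the outer end of the gene, and the centres were 6 bp apart. No peak lay at the outer start sites. Robo1 had 2 peaks in each list. The XY-only peak (72663365 to 72663664) lay 216 bp downstream of the listed start site, which itself is 636 kb inside the gene. The nearest XX peak was 144 kb from it, at the shared position 145 kb downstream of that start site (72808133 to 72808432). The XX and XY centres were 209 bp apart there, the widest offset among the shared peaks of these genes. The XX-only peak of Robo1 lay 19.7 kb from the nearest XY peak (72828390 to 72828689). Robo3, of commissural axons, and Robo4, of endothelium, had no peak in either list.

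The window at the inner Robo2 start site is shown because the shared peak covered 159 (XX) and 165 (XY) of its bases while the outer start sites had no peak. It is printed 5′ to 3′ on the minus strand (chr16:74411776-74412075), and no capitals appear because it held none of the motifs searched.
Robo2: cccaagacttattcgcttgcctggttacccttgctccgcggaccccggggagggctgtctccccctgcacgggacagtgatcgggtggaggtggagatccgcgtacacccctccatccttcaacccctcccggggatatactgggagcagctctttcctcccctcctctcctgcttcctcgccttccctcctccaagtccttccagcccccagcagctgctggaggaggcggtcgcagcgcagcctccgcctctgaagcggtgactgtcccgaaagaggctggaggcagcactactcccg
Its GC content was 65.0%, with 17 CpG dinucleotides.

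None of the 4 netrin genes had a peak, where 42.2% of all protein-coding genes had one in either list, and with 4 genes nothing can be read from this. Ntn1, Ntn3, Ntn4 and Ntn5 had 0 peaks in both lists, within territories of 201 kb, 7.55 kb, 168 kb and 7.60 kb. Among netrin receptors, a peak in either list was present at 2 of 2 DCC-family genes and 2 of 4 Unc5 genes. The share over all 39 genes was 61.5%, and these families are too small to compare. Neo1, which encodes neogenin, a receptor of netrins and repulsive guidance molecules, had 2 shared peaks and no other on chromosome 9. One lay 400 bp (XX) and 384 bp (XY) upstream of the start site (XX 59036841 to 59037140). The other lay 98.0 kb outside the gene (59134627 to 59134926), close to the 100 kb limit, with Adpgk as the next protein-coding gene at 157 kb. Dcc, the canonical netrin receptor, had 1 XX peak inside the gene, 483 kb from its nearer end (chromosome 18, 71868166 to 71868465), and no XY peak, and 0.771 XX peaks per Mb of territory.

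Among the Unc5 receptors, through which netrins repel, Unc5c had 1 XX peak and 2 XY peaks on chromosome 3. Its shared peak covered the start site (XX 141465353 to 141465652), with centres 2 bp apart. Its XY-only peak (141464754 to 141465053) lay 511 bp upstream of the start site and 300 bp from the nearest XX peak. Unc5d had 1 XX peak at an end of the gene (chromosome 8, 29219373 to 29219672) and no XY peak, the nearest being 1950 kb away. Unc5a, and Unc5b, which is known from vascular development, had no peak.

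The Unc5c promoter is shown because the shared peak covered 261 (XX) and 263 (XY) of its 300 bases. It is printed 5′ to 3′ on the plus strand (chr3:141465314-141465613) and held none of the motifs searched.
Unc5c: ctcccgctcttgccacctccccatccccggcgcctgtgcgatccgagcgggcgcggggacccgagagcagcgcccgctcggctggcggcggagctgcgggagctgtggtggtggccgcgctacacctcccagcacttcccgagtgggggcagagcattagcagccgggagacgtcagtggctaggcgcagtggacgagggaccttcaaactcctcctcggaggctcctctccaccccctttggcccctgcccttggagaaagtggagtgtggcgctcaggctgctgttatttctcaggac
Its GC content was 68.3%, with 24 CpG dinucleotides.

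Over the 34 guidance genes with a listed start site, an XX peak overlapped a promoter window at 6 (17.6%, against 21.7% of protein-coding genes with a listed start site) and an XY peak at 7 (20.6%, against 21.8%). These shares were near the background. The 7 windows with a peak had a median GC content of 66.7% (64.0% to 72.3%) and a median of 23 CpG dinucleotides. The Epha4 window is among these 7 and is not printed; XX and XY peaks covered 44 and 20 of its bases, and it held 1 GC box. The 32 windows of guidance genes with no peak had a median of 64.2% GC and 20.5 CpG. Over all protein-coding genes the medians were 63.0% GC and 24 CpG with a peak, and 53.7% GC and 7 CpG with none. Both strands of each window were searched for AGGTCA, for its variant AGGGTCA, for the GC box GGGCGG and for the direct repeat of AGGTCA with 1 base between the copies, each match of which also counts under AGGTCA. Of the 7 windows with a peak, 0 held AGGTCA, against 14.7% of all promoter windows. AGGGTCA was in 1, against 4.26%, the direct repeat in 0, against 0.047%, and GGGCGG in 4, or 57.1%. GGGCGG was in 71.9% of the guidance gene windows with no peak, in 70.6% of all promoter windows with a peak and in 46.2% of all promoter windows. Among all windows with a peak, AGGTCA was in 14.4%, AGGGTCA in 4.62% and the direct repeat in 0.097%. Windows cover the promoter and not the whole of each peak, so letters elsewhere under the peaks were not searched.

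The share of peaks at gene ends was lower for guidance genes than for other genes. Of XX peaks, 24.2% (8 of 33, exact 95% interval 11.1 to 42.3) were 1 kb or less from an end of their gene, against 57.4% (56.5 to 58.4) at the other genes. Of XY peaks, 33.3% (8 of 24, 15.6 to 55.3) did so, against 64.3% (63.3 to 65.2). The intervals do not overlap in either list; they cover counting error only, and peaks of 1 gene are not independent. Inside genes, over 1 kb from the ends, lay 54.5% of XX peaks (36.4 to 71.9), against 24.7%, and 37.5% of XY peaks (18.8 to 59.4), against 21.7%, where the interval includes the value of the other genes. Outside genes, over 1 kb from the ends, lay 21.2% of XX peaks (8.98 to 38.9), against 17.8%, and 29.2% of XY peaks (12.6 to 51.1), against 14.0%, and both intervals include the value of the other genes. Anywhere inside the gene body lay 66.7% of XX peaks (48.2 to 82.0), against 73.9%, and 12 of 24 XY peaks (29.1% to 70.9%), against 77.9%. By start sites, 33.3% of XX peaks (10 of 30, 17.3 to 52.8) lay within 1 kb of a listed start site, against 63.9%, and 43.5% of XY peaks (10 of 23, 23.2 to 65.5), against 71.7%. The part that the length of these genes plays in this was not tested.

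**Figure D4:**
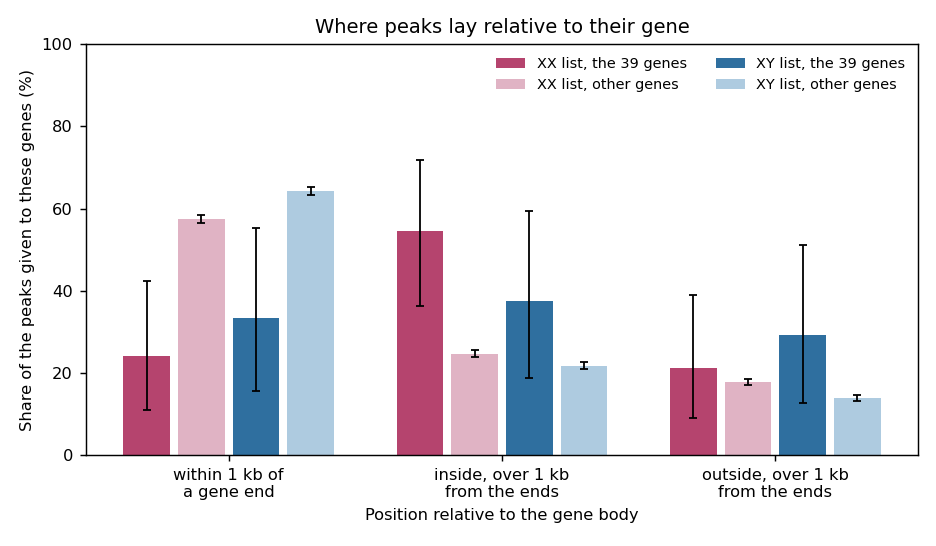
Share of peaks (y axis, %) in 3 classes of position relative to the gene they were given to (x axis), for the 39 genes (dark bars) and the other protein-coding genes (light bars) in the XX and XY lists; error bars are exact 95% intervals of counting error. Within 1 kb of a gene end the dark bars stand at 24.2% (XX) and 33.3% (XY) and the light bars at 57.4% and 64.3%.

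Between the lists, 8 guidance genes had an XX peak and no XY peak (20.5%, against 7.12% of all protein-coding genes): Efna2, Efna3, Epha1, Epha7, Epha10, Slit2, Dcc and Unc5d. The opposite held for 1 gene, Epha2 (2.56%, against 5.26%). These background shares were not matched for gene length, and the median territory was 160 kb for guidance genes, against 45.0 kb for other genes. Of XX peaks at guidance genes, 51.5% were shared (17 of 33, exact 95% interval 33.5 to 69.2), against 68.5% at other genes, a value inside that interval. Of XY peaks, 70.8% were shared (17 of 24, 48.9 to 87.4), against 76.2%. Shared peaks agreed closely in position, with a median of 16 bp (2 to 209 bp) between XX and XY centres. XX-only peaks were a median of 93.9 kb from the nearest XY peak, and 1 of 16 had one within 1 kb. XY-only peaks were a median of 69.2 kb from the nearest XX peak, and 2 of 7 had one within 1 kb. Sex-only peaks overlap no peak of the other list by definition. The same distances over all sex-only peaks were not analysed here, so these medians have no background. With 1 list per sex, these are differences between lists, and no test over replicates can be made.

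Other genes that act with these receptors were counted as well. A list of 45 other ligands, co-receptors and cytoplasmic partners was examined in the same way. An XX peak was present at 32 of them (71.1%, against 36.9% of all protein-coding genes), an XY peak at 32 (71.1%, against 35.1%) and a shared peak at 24 (53.3%, against 28.2%). The median was 1 shared peak per gene. Gene length was not matched in the shares of all protein-coding genes given here. For all genes with territories of 50 to 200 kb, the shares were 43.4% (XX) and 41.4% (XY). With territories of 200 kb or more they were 54.1% (XX) and 48.7% (XY). The 45 genes were not split by territory length, and their excess was not tested. Of the 32 cytoplasmic partners 19 had a shared peak, and of the 13 ligands and co-receptors 5 did. Sos1, a Ras exchange factor, had 2 shared peaks. The tyrosine kinase genes Abl1 and Abl2, Adam10, whose protease cleaves ephrins, Arhgap39, Cdc42, a small GTPase, Dock1, a Rac exchange factor, and Draxin, a ligand of Dcc, each had 1. Dock1 had 3 XY-only peaks besides and Abl1 had 1 XX-only and 1 XY-only peak. Of the netrin-G genes, whose membrane-anchored proteins are relatives of the netrins, Ntng1 had 1 XX-only and 1 XY-only peak and Ntng2 had 1 XY-only peak; they were named after their values were seen. The territories of these 45 genes had a median of 153 kb, and their peaks numbered 3.68 XX and 3.59 XY per Mb, above the guidance genes and below the mean of other protein-coding genes.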

How the data were processed

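The data are 2 lists of COUP-TFII ChIP-seq peaks, 1 for XX and 1 for XY E14.5 mesonephroi, with both replicates of a sex pointing to the same list, per the labels. The deposited values are positions: start and end, with no score. The submitters' processing notes name mm10 and, with no role, bedtools 2.24.0, HOMER 4.10.3, Picard, Bowtie 1.2 and cutadapt. How replicates were combined is not given in the sources used here, nor is the threshold. The labels' protocol text names RUNX1 and fetal ovaries, while titles, tissue, antibody and design name COUP-TFII and mesonephroi, which were used. Input was not analysed here.

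Positions are counted from 1. Gene bodies, start sites (34 of the 39 genes) and promoter sequences came from RefSeq tables for GRCm38.p6, the assembly of mm10; exons and introns were not used here. Each peak went to the protein-coding gene with the nearest body, up to 100 kb away (0 inside, ties to the nearer gene end), with Python 3.11.15 and pandas 2.3.3. The count of 7483 shared peaks was the same with bedtools 2.31.1. On simulated data with genes set far apart, 300 of 300 peaks were given as made: the right gene, or none beyond 100 kb. A choice between close or overlapping genes was not simulated. Territories were measured on a grid of 100 bp, shared evenly where genes overlap. Shares have exact (Clopper-Pearson) 95% intervals from scipy 1.17.1. No test across genes was made.

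The members and lists were chosen with earlier results of these data known, and the classes of territory length after their values were seen. Every member is named; of the other 45 genes, the 8 with most shared peaks (ties by symbol) are named. Alternatives were other definitions of a shared peak, distance limits, assignment by gene end, and competition from genes of every kind.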

Additional observations from a re-analysis of the deposited data

How the results depend on the processing

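Counts of guidance genes and of their peaks were recomputed with shared peaks defined by gaps of up to 1 kb, by centres 100 bp or less apart or by an overlap of 50%, with distance limits of 10 or 500 kb, with the nearest gene end, and with genes of every kind competing for peaks. The number of XY-only peaks fell to 4, against 7, when genes of every kind competed, because XY-only peaks at Ephb3, Ephb2 and Efnb1 went to genes that are not protein-coding. The other recomputed counts stayed within 1.5 times, and the shares within their intervals. With the limit at 500 kb, XX peaks rose to 43, against 33, and XX-only peaks to 24, against 16. XY peaks rose to 26, against 24, and XY-only peaks stayed at 7. When genes of every kind competed, some shared peaks also went to genes that are not protein-coding. They were the peak of Ephb4, the outer peaks of Ephb3 and Neo1 and 1 peak of Slit3. By the nearest gene end, the deep peaks of Robo1, Robo2, Efna5 and Dcc and 1 of Slit3 lay too far from any end to be given. The lists carry no score, so a stricter threshold was not run. No paired analysis was possible because each sex has 1 list over both replicates, and leaving out a replicate could not be done for the same reason. Depth is unknown, so an absent peak is not evidence of absent binding.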
